A study of Homo sapiens with 6 samples.

Results

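The Polo, Aurora and spindle checkpoint kinases are described here through the siRNAs that target 10 of their genes: PLK1, PLK2, PLK3, PLK4, AURKA, AURKB, AURKC, BUB1, BUB1B and TTK. Each gene was matched to its well by the Entrez locus identifier in the deposited table, and all 10 were found, among 939 library wells in all. AURKA is listed there under its older name STK6. Each gene had 1 well per sample and 1 siRNA reagent, so nothing in these data separates the loss of the named gene from other effects of its reagent, and the degree of knockdown was not analysed here.

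The screen used SUM149PT, an established cell line of triple-negative inflammatory breast cancer. Its stated purpose was to find a druggable gene whose loss adds to the effect of eicosapentaenoic acid (EPA), an omega-3 fatty acid. In every sample, untreated ones included, 750 cells per well were transfected with siRNA at 45 nM and left for 48 hours. The untreated group (3 samples) then went on without EPA and the EPA group (3 samples) received 50 µM EPA for 72 hours. Cells were given a resazurin reagent, which metabolically active cells turn into a fluorescent product, and the fluorescence of each well was read. The readout is bulk, so fewer cells and less signal per cell cannot be told apart.

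These kinases drive and police cell division. The Polo-like kinase PLK1 acts at mitotic entry, in spindle assembly and in cytokinesis, PLK4 starts the duplication of centrioles, and PLK2 and PLK3 are stress-responsive relatives. AURKA works at centrosomes and spindle poles, AURKB is the catalytic subunit of the chromosomal passenger complex that corrects wrong attachments of chromosomes to the spindle, and AURKC is a close relative best known from germ cells. TTK (also called MPS1), BUB1 and BUB1B (also called BUBR1) belong to the spindle assembly checkpoint, which delays chromosome separation until every chromosome is attached. Cells that lose a part of this machinery can divide with the wrong chromosomes, stop in mitosis or die.

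The scale is set by the control wells. Wells with OTP3, the negative control siRNA, had a mean fluorescence of 49202 ± 1292 without EPA and 24974 ± 2908 under EPA (± is the SD over 3 samples here and in what follows, unless SE is written). Blank wells read 3738 ± 40.5 and 3888 ± 28.9. The median library well read 22991 ± 1184 and 13565 ± 1404. A log2 value below is the log2 of a well's fluorescence over the median library well of its own plate and sample, so 0 is that median, not an untransfected cell. Tests are limma's moderated tests, two-sided, with Benjamini-Hochberg adjustment over all 939 library wells and a call at an adjusted p under 0.05. None of the 10 wells lay in the outermost rows or in the last column of a plate. The labels do not say whether the samples were separate cultures, and the p-values therefore rest on a spread that may be technical.

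**Figure D1:**
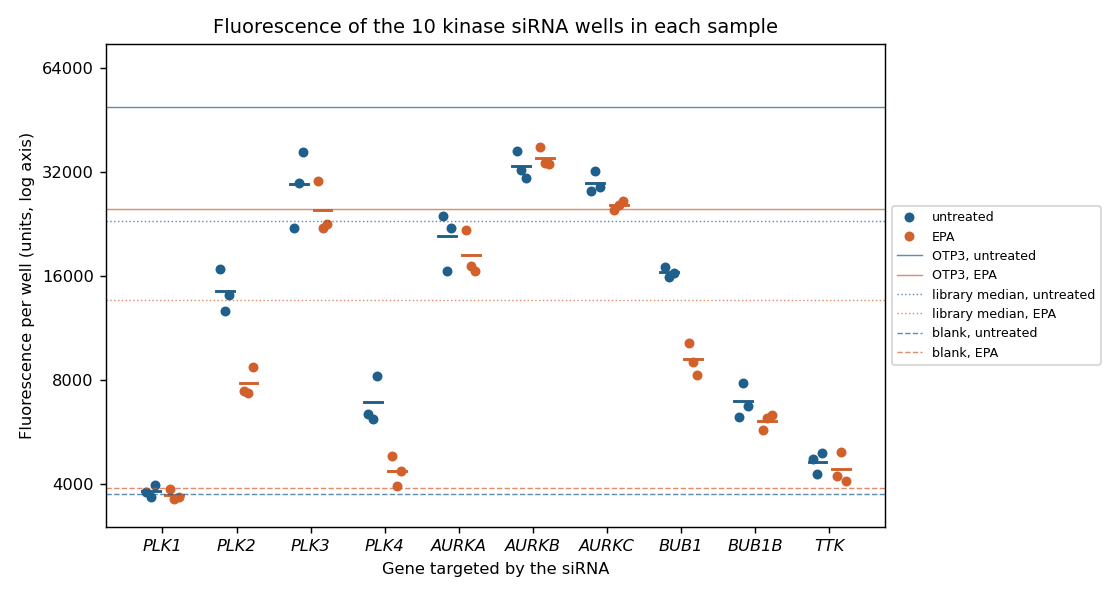
Fluorescence of the siRNA well of each kinase in 3 untreated (blue) and 3 EPA-treated (orange) samples, on a log axis, with short bars at the group means and horizontal lines at the mean OTP3 well, the library median and the mean blank well over all plates. PLK1 lies on the blank level in both groups, TTK just above it, and AURKB is the gene whose mean was not lower with EPA (33223 untreated, 35097 with EPA).

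Without EPA, siRNAs against 6 of the 10 genes gave a signal below the library median (PLK1, TTK, BUB1B, PLK4, BUB1 and PLK2), 2 gave a signal above it (AURKB and AURKC) and 2 did not pass the test (PLK3 and AURKA). Over the whole library 35.6% of siRNAs were called lower and 33.9% higher. As plain shares, 2 of 10 higher calls is not above that background and 6 of 10 lower calls is above it. Whether 6 of 10 differs from the library share was not tested, and the genes were chosen with earlier results of these data known. The median of the 10 was -0.52, against -0.006 for all library siRNAs. Centred on OTP3 in place of the library median, all 10 genes were called lower without EPA, and so were 92.4% of all library siRNAs, with 0.852% higher. After median polish, which removes row and column effects of the plate, 8 were lower and none higher, beside 27.6% and 26.5% of the library.

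PLK1 gave the lowest signal of the 10. Its well read 3779, 3669 and 3968 untreated, which ranked first, second and second from the bottom of the 939 library wells in the 3 samples. With EPA it read 3870, 3604 and 3647. All 6 readings were within 3 SDs of the blank wells of the same plate, and the groups overlapped. PLK1 stood at -2.69 (SE 0.0947, adjusted p = 2.22e-08) untreated and at -1.99 (adjusted p = 1.1e-07) with EPA.

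TTK, the kinase at the head of the checkpoint, came next. Its well read 4703, 4254 and 4895 untreated and 4206, 4949 and 4061 with EPA, and here too the groups overlapped. All 3 untreated readings were above the range of the blank wells, and 2 of the 3 EPA readings fell inside it. TTK stood at -2.12 (SE 0.0902, adjusted p = 4.6e-08) untreated. Its plate row was low as a whole, with a row median of -0.95 over 20 library wells, in which TTK was the second lowest. After median polish TTK was at -1.14 and still passed.

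BUB1B, the checkpoint component that holds back the anaphase-promoting complex, read 6240, 7843 and 6703 untreated and 5704, 6181 and 6340 with EPA, with overlap in 1 EPA sample. It stood at -1.81 (SE 0.111, adjusted p = 5.04e-07) untreated and at -1.31 with EPA, and was the lowest of the 20 library wells of its row in both groups. BUB1, which shares that row of plate 1 at a distance of 2 columns, was much milder. It read 16989, 15853 and 16309 untreated and 10213, 8982 and 8274 with EPA, with no overlap between the groups. BUB1 stood at -0.56 (SE 0.102, adjusted p = 0.000741) and at -0.72. The difference of BUB1 minus BUB1B was 1.25 ± 0.217 untreated and 0.59 ± 0.232 with EPA, above 0 in every sample.

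PLK4 read 6353, 6162 and 8209 untreated and 4814, 3926 and 4350 with EPA, so every EPA reading was below every untreated one. It stood at -1.55 (SE 0.114, adjusted p = 1.62e-06) untreated, the lowest of the 10 library wells in its row. PLK2 read 16764, 12637 and 14029 untreated and 7400, 7330 and 8689 with EPA, also without overlap. PLK2 stood at -0.48 (SE 0.123, adjusted p = 0.00548) untreated. PLK3 read 21924, 29714 and 36577 untreated and 29991, 21920 and 22657 with EPA, with overlapping groups and the widest untreated spread of the 10. It was at 0.26 (SE 0.133, adjusted p = 0.109) untreated, and leaving out untreated replicate 1 brought it to 0.45 and past the threshold.

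The Polo wells ran from the bottom of the library (PLK1) to ranks of 405, 673 and 784 of 939 untreated (PLK3). PLK1 was below PLK4 by 1.14 ± 0.106 log2 units untreated (PLK1 minus PLK4 -1.14), PLK4 was below PLK2 (PLK2 minus PLK4 1.07 ± 0.315), and PLK2 was below PLK3 (PLK2 minus PLK3 -0.74 ± 0.484), each in 3 of 3 samples. With EPA that order was the same in 3 of 3 samples relative to the library median. All 3 EPA readings of PLK1 and 2 of the 3 of PLK4 were within the range of the blank wells. Their means with EPA were 3707 on plate 2 and 4363 on plate 3, where the library medians were 14913 and 11455. A difference in signal between PLK1 and PLK4 cannot be read there. After median polish the order of the Polo wells was not resolved with EPA. PLK1 minus PLK4 was then 0.19 ± 0.736 and PLK2 minus PLK3 0.18 ± 0.233, both with samples on either side of 0. Of the 12 pairs of genes within the 3 families, all 12 kept 1 order in every untreated sample relative to the library median and 10 did so with EPA. The exceptions with EPA were AURKA and AURKC, and BUB1B and TTK. The place of TTK depended on the row and column correction. After median polish BUB1B lay below TTK in every sample (BUB1B minus TTK -0.99 ± 0.249 untreated, against 0.32 ± 0.131 without the polish). BUB1 and TTK were then not separated untreated (0.39 ± 0.423), and with EPA BUB1 lay below TTK (-0.77 ± 0.299, against 0.66 ± 0.129 without the polish). These orders are descriptions of 3 readings and carry no p-value.

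The Aurora wells read higher than the library median or close to it. AURKA read 23862, 16477 and 22018 untreated and 21668, 17037 and 16563 with EPA. AURKB read 36724, 32313 and 30633 untreated and 37687, 33843 and 33761 with EPA. AURKC read 28108, 32196 and 28820 untreated and 24814, 25654 and 26397 with EPA, and of the 3 it was the gene whose groups did not overlap. Untreated, AURKA stood at 0.03 (SE 0.107, adjusted p = 0.787), AURKB at 0.46 (SE 0.0839, adjusted p = 0.00073) and AURKC at 0.30 (SE 0.0975, adjusted p = 0.0193). AURKB minus AURKC was 0.16 ± 0.200 untreated, with the smallest sample difference at 0.005, so their order there is barely resolved.

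The untreated calls of the Aurora kinases depended on the centring. As shares of OTP3 their untreated wells were at 46.4% ± 7.79 (AURKA), 67.05% ± 8.36 (AURKB) and 59.8% ± 4.76 (AURKC), all below the negative control. Centred on OTP3 they were called lower, at -1.12, -0.58 and -0.74. All 3 Aurora wells lay in row 15 of their plates, AURKB and AURKC in the same row of plate 1. After median polish AURKA (-0.44) and AURKC (-0.36) were called lower and AURKB (0.17) no longer passed.

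**Figure D2:**
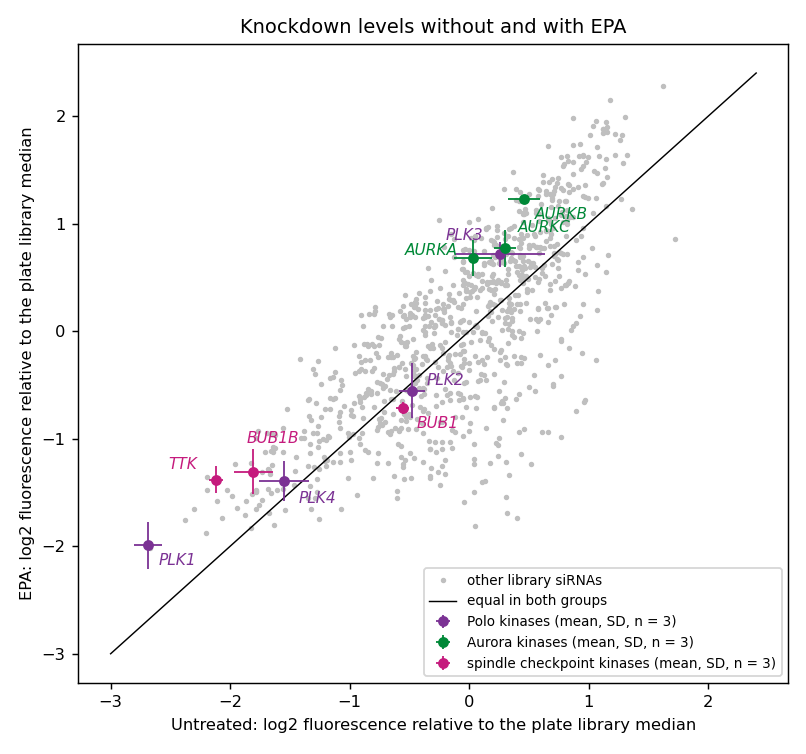
Mean log2 fluorescence relative to the plate's library median without EPA (horizontal axis) and with EPA (vertical axis) for all 939 library siRNAs, with SD bars over 3 samples for the 10 kinases and a line where both are equal. PLK1, TTK, BUB1B, PLK3 and the 3 Aurora kinases lie above the line, PLK2, PLK4 and BUB1 near it.

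With EPA the same 6 genes were called lower than the library median, and 4 were called higher (AURKB, AURKC, PLK3 and AURKA), beside 37.0% lower and 36.4% higher among all siRNAs. The median of the 10 was -0.64, against 0.03 for all. PLK1 (-1.99), PLK4 (-1.39), TTK (-1.38) and BUB1B (-1.31) were the lowest. PLK4, TTK and BUB1B were close together on this scale: TTK minus PLK4 was 0.01 ± 0.282 and BUB1B minus TTK 0.08 ± 0.112, with samples on both sides of 0. The blank level is not subtracted on this scale. For PLK4 and TTK, 2 of the 3 EPA readings were within the range of the blank wells. With the blank subtracted BUB1B minus TTK was 1.21 ± 0.346 with EPA, above 0 in every sample. Without that subtraction AURKB stood apart at the other end, at 1.22 (SE 0.0839, adjusted p = 5.59e-07). It was 0.45 ± 0.132 above AURKC in 3 of 3 samples. Its EPA wells ranked 865, 886 and 884 from the bottom of 939. After median polish 5 of the 10 were lower and 1 was higher, beside 30.4% and 30.6% of the library. The polish removed the lower calls of PLK2 (-0.21, adjusted p = 0.132) and TTK (-0.27, adjusted p = 0.106) and the higher calls of AURKA (-0.12) and AURKC (0.23). It turned PLK3 into a lower call at -0.39.

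The comparison at the centre of the screen is EPA minus untreated. A negative value marks an siRNA whose signal, relative to the median library well, was lower with EPA than without it. A value of 0 is not the level of the negative control siRNA. Over all plates OTP3 wells kept 50.8% of their signal with EPA, and the median library well 59.0%. None of the 10 genes was called lower in that direction, and 6 were called higher, beside 15.2% lower and 29.0% higher over the library. At an unadjusted p under 0.05 the count of lower genes was also 0 of 10, beside 18.3% of the library. The median of the 10 was 0.49, and the median library siRNA was itself at 0.20 on this scale, so the members' values stand against that shift. After median polish none was lower and 5 were higher, beside 14.8% and 16.3% of the library, and the library median was 0.07. Centred on OTP3 none was lower and 7 were higher, beside 9.69% and 46.5%.

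The 6 higher genes were AURKB at 0.77 (SE 0.119, adjusted p = 0.00123), TTK at 0.74 (SE 0.128, adjusted p = 0.0019), PLK1 at 0.70 (SE 0.134, adjusted p = 0.00301), AURKA at 0.64 (SE 0.151, adjusted p = 0.0075), BUB1B at 0.50 (SE 0.156, adjusted p = 0.0263) and AURKC at 0.47 (SE 0.138, adjusted p = 0.0191). For each of these 6, and for PLK3, the 3 EPA values lay above the 3 untreated values on the log2 scale. Over the library that held for 36.0% of siRNAs. PLK3 at 0.46 (adjusted p = 0.0706), PLK4 at 0.16 (adjusted p = 0.457), PLK2 at -0.07 (adjusted p = 0.747) and BUB1 at -0.16 (adjusted p = 0.389) did not pass. BUB1 was the gene of the 10 whose 3 EPA values lay below its 3 untreated values, which held for 18.8% of the library.

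PLK1 and TTK carry higher calls without any gain of signal. The PLK1 well kept 97.4% ± 3.11 (SE) of its fluorescence and the TTK well 95.4% ± 7.13, both close to the blank level in both groups, while the library median of plate 2, which holds PLK1, went from 24573 ± 1920 to 14913 ± 2846. As a share of OTP3 the PLK1 well read 7.15% ± 0.152 untreated and 14.5% ± 1.09 with EPA, and with the blank wells subtracted 0.278% ± 0.432 and -0.878% ± 0.692. With the blank subtracted the TTK share was 2.11% ± 0.831 and 2.87% ± 2.50. With the blank subtracted, 3 of the 10 genes were higher and none lower, beside 25.8% and 16.5% of the library, and neither PLK1 (adjusted p = 0.159) nor TTK (adjusted p = 0.21) passed. Both were called higher when median polish was added to the blank subtraction, at 1.71 (adjusted p = 0.0183) and 1.29 (adjusted p = 0.0408). With quantile normalization they were at 0.02 and 0.25, and neither passed. PLK1 lay at the floor set for blank-subtracted values in all 6 samples, and TTK in 2 of the 3 EPA samples. No further loss of PLK1 could be read there. The 1.71 of PLK1 rests on that floor and on the plate, row and column corrections, with no reading of PLK1 in it. BUB1B, at 6.81% ± 1.89 of OTP3 untreated and 9.79% ± 2.76 with EPA after blank subtraction, no longer passed either (adjusted p = 0.431). Over 15 alternatives BUB1B passed in 6, with values from 0.34 to 0.71 (adjusted p 0.00815 to 0.498). PLK1 and TTK each passed in 13 of 15.

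**Figure D3:**
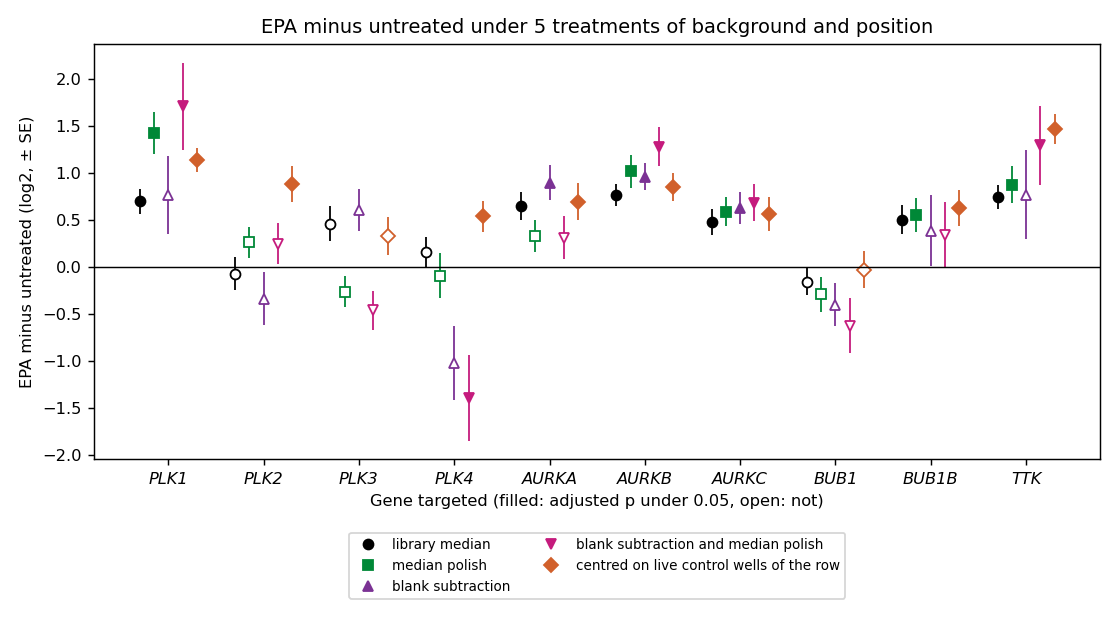
EPA minus untreated for each kinase (log2, bars are SE of the fit) relative to the library median and under 4 other treatments of the blank level and the plate position. Filled symbols passed an adjusted p under 0.05. AURKB and AURKC are filled in all 5, BUB1 is open in all 5, and PLK4 ranges from -1.39 to 0.54.

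The Aurora kinases did not lie near the blank level, and their wells differ from the control wells in how much signal EPA took. The AURKB well kept 105.6% ± 6.97 (SE) of its signal, AURKA 88.6% ± 12.3 and AURKC 86.3% ± 3.97. OTP3 wells kept 54.3% on plate 1, which holds AURKB and AURKC, and 49.6% on plate 3, which holds AURKA. As a share of OTP3, AURKB went from 67.05% ± 8.36 to 131.4% ± 13.99, AURKA from 46.4% ± 7.79 to 82.7% ± 5.77 and AURKC from 59.8% ± 4.76 to 96.7% ± 16.7. The groups did not overlap for any of the 3 (two-sided exact permutation test, p = 0.1, which is the lowest value possible with 3 samples a group). In all, the share of OTP3 was higher with EPA in every sample for 8 of the 10 genes and overlapped for PLK2 and BUB1; the same held for 50.4% of library siRNAs, and 11.4% had a lower share in every sample. After blank subtraction it held for 4 genes, AURKA, AURKB, AURKC and PLK3, beside 38.7% of library siRNAs, and the share was lower in every sample for PLK4, beside 17.4%.

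How much signal EPA took from control wells varied from row to row. In row 15 of plate 1 the OTP3 and cells-only wells kept 60.2% of their signal, and against those wells AURKB went from 64.2% ± 5.46 to 114.2% ± 12.7 and AURKC from 57.4% ± 3.78 to 84.1% ± 15.6. AURKB had the highest EPA minus untreated value of the 20 library wells of that row, whose median was -0.06, and AURKC the fourth highest. After median polish AURKB stood at 1.01 (SE 0.176, adjusted p = 0.00038) and AURKC at 0.59 (adjusted p = 0.00831). AURKB was called higher in each of the 16 alternatives run, with values from 0.53 to 1.28 and adjusted p from 0.000353 to 0.0101. AURKC passed in 9 of 16, with values from 0.33 to 0.68 (adjusted p 0.00503 to 0.0886). It did not pass with quantile normalization, with centring on the median difference, at a threshold of 0.01, or when untreated replicate 1, untreated replicate 3, EPA replicate 5 or EPA replicate 6 was left out.

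**Figure D4:**
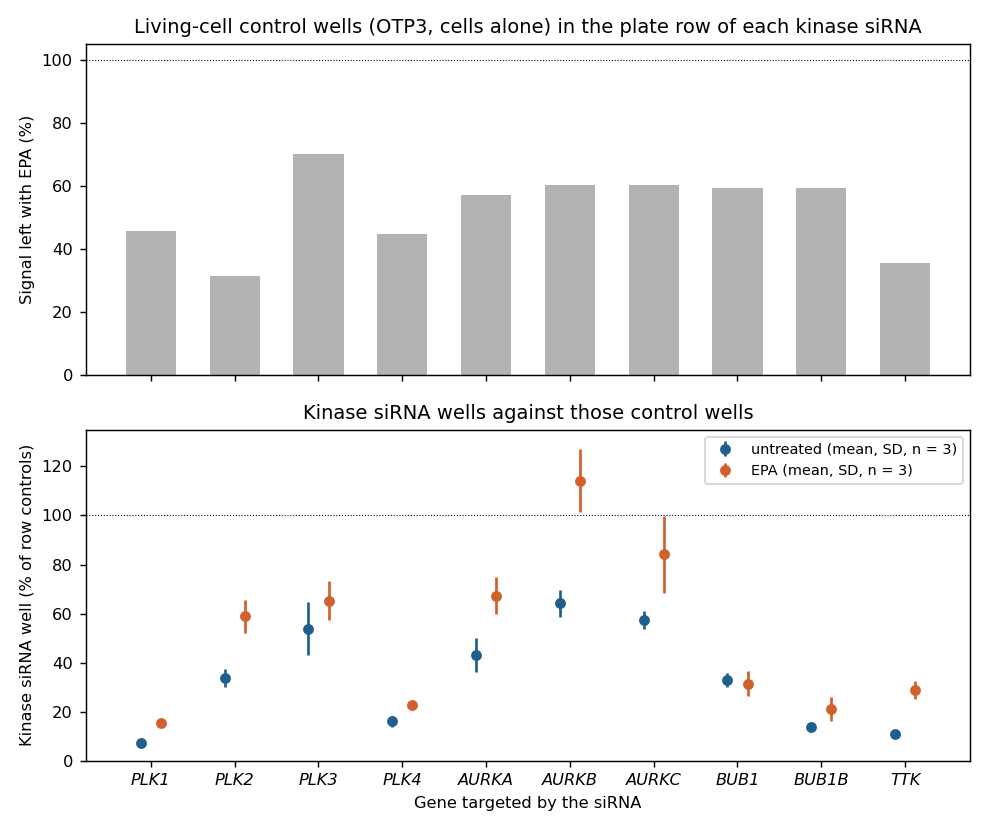
Top, signal left with EPA in the OTP3 and cells-only wells of the plate row of each kinase siRNA (bars, percent of untreated). Bottom, the kinase siRNA well as a percent of those control wells, untreated and with EPA (mean and SD, n = 3). Control wells kept between 31.3% (row of PLK2) and 70.2% (row of PLK3), and AURKB is the gene whose mean reached the control wells with EPA.

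AURKA, in the next to last column of plate 3, can be set against wells on either side of it that had cells but no siRNA. The well in column 22 read 45427 ± 3259 untreated and 24133 ± 1985 with EPA, and the well in column 24 read 49397 ± 2984 and 44592 ± 2118. AURKA was 43.7% ± 6.44 of the mean of both untreated and 53.8% ± 9.96 with EPA, and here the groups overlapped. That mean includes a well of the last column, which kept 90.3% of its signal. The 9 wells without siRNA in columns 6 to 22 of that row kept 36.6%. In row 13 the well in column 24 also kept more, 62.8% beside 29.1%. After median polish AURKA was at 0.32 and did not pass (adjusted p = 0.154). Over 16 alternatives its adjusted p ran from 0.00228 to 0.330, and it passed in 13.

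PLK4 also sat between wells without siRNA, in row 13 of plate 3. The well to its left read 41265 ± 3704 untreated and 12408 ± 2581 with EPA, and the well to its right 38203 ± 2431 and 12124 ± 2131, so EPA left little signal in this part of the plate even without any knockdown. PLK4 was 17.4% ± 2.37 of their mean untreated and 35.7% ± 1.34 with EPA. With the blank wells subtracted it was 8.73% ± 2.92 and 5.02% ± 4.91, with overlapping groups.

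The sign of EPA minus untreated for PLK4 changed with the processing. Relative to the library median it was at 0.16, after median polish at -0.09, with quantile normalization at -0.18 and with centring on the median difference at -0.10, none of which passed. With blank subtraction it was at -1.02 (SE 0.389, adjusted p = 0.0593). With blank subtraction and median polish together it was called lower, at -1.39 (SE 0.458, adjusted p = 0.0425), as 1 of the 10 genes, beside 15.5% of library siRNAs. On that scale 4 genes were higher, beside 13.7%, and 1 of these was PLK1, which lay at the floor in all 6 samples. Against the OTP3 and cells-only wells of its row it was called higher, at 0.54 (adjusted p = 0.0166). After blank subtraction its well kept 15.1% of its signal and OTP3 on the same plate kept 44.7%. The share of OTP3 was 7.65% ± 2.49 untreated and 2.50% ± 2.43 with EPA on that scale, without overlap (exact permutation p = 0.1, the smallest possible). In 2 of the 3 EPA samples the PLK4 well was within the range of the blank wells, so the size of its loss cannot be read.

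**Figure D5:**
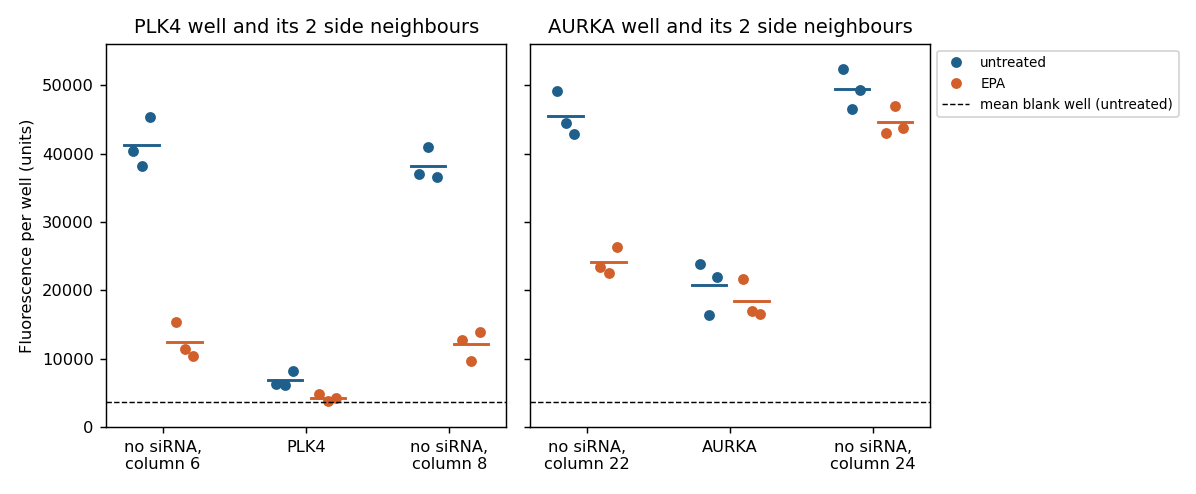
Fluorescence of the PLK4 and AURKA wells on plate 3 and of the wells without siRNA on either side, in 3 untreated and 3 EPA-treated samples, with bars at the means and a dashed line at the mean untreated blank well. EPA readings of PLK4 (4814, 3926 and 4350) lie above the blank line, 2 of them within 3 SDs of the blank wells of the same sample. The wells beside AURKA differ with EPA (24133 in column 22, 44592 in column 24).

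Without blank subtraction, the shares of signal that PLK2 and BUB1 kept with EPA were a little below those of the library medians. The PLK2 well kept 53.9% ± 5.45 (SE) of its signal and the BUB1 well 55.9% ± 3.64, beside 57.0% and 62.4% for the median library wells of their plates. With the blank subtracted they also kept less than those library wells, 36.5% and 41.9% beside 46.3% and 54.9%. OTP3 wells of those plates then kept 44.7% and 50.4%. In limma's test with blank subtraction neither gene passed (adjusted p = 0.34 and 0.17). Centred on the median difference, without blank subtraction, PLK2 was at -0.33 and BUB1 at -0.30 in EPA minus untreated. Neither passed limma's test there (adjusted p = 0.162 and 0.130). In the row of PLK2 the OTP3 and cells-only wells kept 31.3%, and against them PLK2 went from 33.8% ± 3.59 to 58.9% ± 6.56 without overlap. In the row of BUB1 they kept 59.2%, and BUB1 went from 32.8% ± 2.80 to 31.4% ± 5.13. Centred on such row controls, 8 of the 10 genes were called higher with EPA and none lower, beside 53.0% and 6.92% of library siRNAs. The blank level is not subtracted in that setting. Among the 8 is PLK1, whose 6 readings were all within the range of the blank wells. PLK4 and TTK are also among them, each with 2 of 3 EPA readings in that range. As plain shares of the row controls, all but PLK3 and BUB1 were higher with EPA in every sample, which held for 52.6% of the library, with 9.58% lower. BUB1 passed in neither direction in any of the 16 alternatives, with values from -0.63 to 0.05. PLK3 did not pass at the library median, was at 0.67 and higher when centred on OTP3, and at -0.27 after median polish (adjusted p = 0.221).

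For each of the 10 genes, the library siRNA with the nearest profile was found by the Euclidean distance over the 6 log2 values. PLK1 lay nearest to JAK2, a kinase of cytokine receptors whose well was also at the blank level (3856 untreated, 3647 with EPA, distance 0.209). TTK lay nearest to CCL17 (distance 0.326) and BUB1B to MAST2 (0.346), again at low signal. AURKB lay nearest to CDKN3, a phosphatase of cyclin-dependent kinases, at 0.47 untreated and 1.14 with EPA (0.225), and that well is in the last column of the same plate row. AURKC lay nearest to CIT, citron kinase, which acts in cytokinesis (0.269), BUB1 to MAST1, listed as SAST (0.232), PLK2 to FGFR4 (0.394), PLK3 to AZU1 (0.274), PLK4 to CSNK1G1 (0.366) and AURKA to CLK3 (0.324). With 939 siRNAs and 6 values, a near neighbour is easily found.

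Of 38 other genes of mitosis and the cell cycle, 33 were measured. Without EPA 11 of the 33 were lower and 11 higher, shares close to the 35.6% and 33.9% of the library, led by CHEK1 (-2.38) and WEE1 (-2.02), which restrain mitotic entry, and by the DNA damage checkpoint kinase CHEK2 (1.15). With EPA 9 were lower and 12 higher, beside 37.0% and 36.4%. In EPA minus untreated 3 of the 33 were lower and 9 higher, beside 15.2% and 29.0% of the library. The lower genes were STK10, a kinase that can phosphorylate PLK1, at -1.60 (SE 0.299, adjusted p = 0.00269), NEK1 at -1.28 (SE 0.159, adjusted p = 0.000515) and CDK2 at -0.60 (adjusted p = 0.0146). The higher genes were led by NEK8 at 0.93 (SE 0.128, adjusted p = 0.000766). The STK10 wells read 32811 ± 10095 untreated and 6055 ± 1401 with EPA. The list median was 0.20, the same as that of the library. After median polish STK10 (-1.74) and NEK1 (-1.22) were still lower, and CDK2 (-0.16, adjusted p = 0.419) and NEK8 (0.20) no longer passed.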

How the data were processed

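The data are 6 samples of 1 siRNA screen, 3 untreated and 3 with EPA. The table deposited by the authors holds raw intensity of fluorescence, per the file headers, with 1 value per well and sample on 3 plates of 16 rows and 24 columns. Blank subtraction or normalization by the authors is not given in the sources used here. Columns carry the group and a running number from 1 to 6. Each plate held 16 OTP3, 24 cells-only, 16 blank and 8 TOX (positive control) wells, and 21 wells were marked as without siRNA. Symbols were updated through a RefSeq table of GRCh38.p14, which matched 933 of 939 library wells. The sequences of the siRNAs were not used here.

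Each well was divided by the median library well of its plate and sample and log2-transformed, without pseudocount or filter. A mean per group was fitted to 939 wells over all 6 samples with limma 3.58.1 (R 4.3.3; trend and robust options), in a script tested on simulated data. The 10 genes and the list of related genes were chosen with earlier results of these data known. All 10 are named, with the nearest siRNA to each and the 3 related genes with the largest statistic in each comparison. BH adjustment used all library wells. Alternatives were centring on OTP3, blank subtraction (floor of 3 SDs of the blank wells), median polish, both together, quantile normalization, plain variance moderation, a low-signal filter at 2 times the median TOX well, a threshold of 0.01, centring on the median difference, and leaving out each sample. Centring on the OTP3 and cells-only wells of the same row was added after seeing the data. CDK2 lies outside these rules and was named after its value was seen. With 3 samples a group, the number of samples and the nearness of a well to the blank level limit precision.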

Additional observations from a re-analysis of the deposited data

Results flagged for a closer look

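For 6 of the 10 genes limma's test of the difference itself found that the signal relative to the library median was not the same with and without EPA. The differences (EPA minus untreated, log2) were 0.766 for AURKB, 0.740 for TTK, 0.697 for PLK1, 0.644 for AURKA, 0.500 for BUB1B and 0.473 for AURKC, all higher relative to the library median with EPA, a call that 29.0% of library siRNAs also had. The fluorescence itself had a lower mean with EPA for 5 of these 6 genes, all but AURKB. The wells of PLK1 and TTK lay at or near the blank level, at 3805 ± 151 and 4617 ± 329 untreated. All 6 PLK1 readings and 2 of the 3 EPA readings of TTK were in the range of the blank wells. For PLK1 the difference therefore cannot show a changed effect of its siRNA. With the blank subtracted, PLK1, TTK and BUB1B did not pass limma's test (adjusted p = 0.159, 0.21 and 0.431). The wells of the 3 Aurora kinases lay in row 15, where control wells kept 60.2% (plate 1) and 57.3% (plate 3) of their signal. The part that the blank level and the row play in these differences is given by the alternatives and was not tested further.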

How the results depend on the processing

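No paired analysis was possible because the columns are numbered from 1 to 6 through both groups and carry no number shared between them. PLK1, PLK4, BUB1B, BUB1 and PLK2 kept their lower call without EPA in each alternative that was run on them, as did TTK, and AURKB kept its higher call in EPA minus untreated. The low-signal filter leaves out PLK1, PLK4, BUB1B and TTK by construction.

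Without EPA 6 genes were lower and 2 higher. Lower genes numbered 10 with OTP3 centring and with row control centring, and 2 with the low-signal filter. Higher genes numbered 0 with OTP3 centring, row control centring, median polish and blank subtraction with median polish, 1 at a threshold of 0.01, and 1 to 3 when a replicate was left out. With EPA 6 were lower and 4 higher. Lower genes numbered 2 with the filter, and higher genes 1 with OTP3 centring, median polish and both corrections together, and 0 with row control centring. In EPA minus untreated 0 were lower and 6 higher. Lower genes numbered 1 with both corrections, and higher genes 3 with blank subtraction, the filter and median-difference centring, and 2 with quantile normalization. The count of genes whose share of OTP3 was higher with EPA in every sample went from 8 to 4 with blank subtraction (38.7% of the library), and that of lower shares from 0 to 1 (17.4%).

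Signs turned as follows. Without EPA, PLK3 (0.26) was at -0.79 with OTP3 centring, -0.91 with row controls, -0.13 with median polish and -0.16 with both corrections. AURKA (0.03) was at -1.12, -1.21, -0.44 and -0.53 in the same order, at -0.17 with quantile normalization and between -0.027 and 0.12 when an untreated replicate was left out. AURKB (0.46) was at -0.58 with OTP3 centring and -0.64 with row controls. AURKC (0.30) was at -0.74, -0.80, -0.36 and -0.42 in the order given for PLK3. With EPA, PLK3 (0.71) was at -0.12, -0.58, -0.39 and -0.63 in that order, AURKA (0.68) at -0.28, -0.52, -0.12 and -0.22, and AURKC (0.77) at -0.064 with OTP3 centring and -0.24 with row controls. In EPA minus untreated, PLK2 (-0.07) was at 0.13 with OTP3 centring, 0.88 with row controls, 0.26 with median polish, 0.24 with both corrections, and between -0.22 and 4.2e-05 when a replicate was left out. PLK3 (0.46) was at -0.27 with median polish and -0.46 with both. PLK4 (0.16) was at -1.02 with blank subtraction, -0.094 with median polish, -1.39 with both, -0.18 with quantile normalization and -0.10 with median-difference centring. BUB1 (-0.16) was at 0.047 with OTP3 centring. OTP3 and row control centring move the whole library, to a median of -1.11 and -1.14 without EPA, where 94.5% of siRNAs were called lower with row controls. With EPA 11.2% were called higher with OTP3 centring and 6.82% with row controls. In EPA minus untreated the library was called higher in 25.8% with blank subtraction, 28.6% with the filter, 14.0% with median-difference centring (20.7% lower) and 16.8% with quantile normalization. The filter left 29.6% of the library lower without EPA and 31.0% with it. The causes of the other changes were not tested.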

Other observations

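The wells without siRNA on plate 3, which entered no comparison of groups of genes, differed in how much signal EPA left in the rows of PLK4 and AURKA. In row 13 the 9 such wells in columns 6 to 22 read 39745 ± 1529 untreated and 11554 ± 1708 with EPA (SD, n = 3), so 29.1% was left, and the OTP3 and cells-only wells of that row kept 44.8%. In row 15 the 9 wells in columns 6 to 22 kept 36.6%, the well in column 24 kept 90.3% and the OTP3 and cells-only wells 57.3%. Against the 9 wells of its row PLK4 went from 17.5% ± 3.59 to 38.0% ± 4.05, and AURKA from 45.3% ± 3.96 to 110.2% ± 13.1. These shares are without blank subtraction, and 2 of the 3 EPA readings of PLK4 were within the range of the blank wells. With the blank subtracted, PLK4 was at 8.73% ± 2.92 of the mean of its 2 side neighbours untreated. With EPA it was at 5.02% ± 4.91, with overlapping groups, so the rise of PLK4 cannot be read as a gain of signal.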
